A study of Gallus gallus with 20 samples.

Results

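The collagen chains were the genes of the deposited chicken table whose symbol is COL, a number, the letter A and a second number, each of which encodes 1 alpha chain of a collagen. This rule found 33 of the 30108 genes listed. It selects by symbol and not by level or fold change, but it was set with earlier results of these data known. RNA sequencing of cultured muscle satellite cells (MuSCs), the stem cells of skeletal muscle, gave 9 affected and 11 non-affected samples. The affected cells were isolated from the pectoralis major (the large breast muscle) of broilers with wooden breast, a myopathy with hard and fibrotic breast fillets, and the non-affected cells from broilers with few signs of fibrosis, a group that was not free of damaged fibres. The series describes the cells as those of male Ross-308 birds, 36 days old. The reared birds were sorted by palpation, histology and near-infrared spectroscopy, while some cells of the study came from fillets of an abattoir, graded by the last of these methods and histology, and no label tells which samples these were. All cultures were pre-plated to remove fibroblasts, passaged, and grown on surfaces coated with entactin, collagen IV and laminin, with no treatment that differed between the groups, so the values describe proliferating cells in culture and not the muscle itself. The paper reports that the affected cells proliferated less in culture, and the part of this in the values was not tested.

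Collagens are built of 3 alpha chains wound into a triple helix. Fibrillar collagens (types I, III, V and XI) form the cross-linked fibres that stiffen fibrotic tissue, while type IV forms the sheet-like network of the basement membrane that surrounds each muscle fibre and its satellite cells. FACIT collagens decorate fibrils, type VI forms beaded filaments next to the basement membrane of muscle, types VIII and X form networks, and others are anchored in cell membranes or carry a cleavable end, as type XVIII does. The chains are modified, folded, trimmed and cross-linked by a set of dedicated enzymes, which are described after the chains.

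Total counts were 15632134 to 26541152 (median 17731763) in the affected samples and 15425103 to 28113814 (median 19234724) in the non-affected samples. HINTW, a gene of the W chromosome, which hens carry and males lack, separated the libraries almost as the groups did. It had 876 counts in the affected sample A76 and 9 or fewer in the other 8 affected samples, against 1316 to 5701 in 9 non-affected samples and 9 or fewer in the non-affected NA61 and NA61B. These counts go against the description of the sequenced cells as male, and the group and the presence of W transcripts are told apart by A76, NA61 and NA61B alone. The labels give each sample a bird number, and 4 of these (A16, A76, NA61 and NA64) recur with the suffix B, which no source used here explains. A76 and A76B differed in HINTW (876 against 0 counts). The median absolute difference over 30 chains was 0.32 on the log2 scale within the pair of A16, 0.45 for A76, 0.57 for NA61 and 1.05 for NA64. Between samples of a group with different numbers it had a median of 0.60 (0.27 to 1.17 over 87 pairs). All 4 pairs with a shared number lie in that range, so the measure cannot show whether a pair is 1 bird. Where a pair is 1 bird, its samples are not independent and p-values are too small. The summed level of 6 of 7 listed myogenic markers in the table had a median of 91.0 CPM (counts scaled to a common library size) in affected samples (45.3 to 199.7) and 303 in non-affected samples (64.1 to 1849). That of 8 of 9 fibroblast markers had a median of 2670 CPM in affected samples (2204 to 3613) and 2566 in non-affected samples (1039 to 3326). It was carried by THY1, MFAP5 and DCN, while DPT, LUM, TCF21 and OSR1 stayed below 4 CPM in every sample. PDGFRA ranged from 0.123 to 9.72 CPM in affected and from 0.139 to 12.3 CPM in non-affected samples.

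Of the 33 chains, 30 had enough counts for a test. COL9A1 (a FACIT chain of cartilage), COL17A1 (a transmembrane chain of epithelia) and COL28A1 had at most 15, 27 and 9 counts in any sample and were not tested. Of the 30 tested chains, 3 were lower and 0 were higher in affected MuSCs at an adjusted p of 0.05 or less in the quasi-likelihood test of edgeR, adjusted over all 14524 tested genes. Those 3 are 10% of the chains, and 6.07% of all genes tested passed in either direction (2.86% lower, 3.21% higher). All 3 had a log2 fold change of −1 or less, a size at which 1.87% of all genes passed as lower and 1.31% as higher (log2 fold change of 1 or more). At an unadjusted p under 0.05 there were 2 chains with a positive and 5 with a negative log2 fold change, so 7 of 30 chains, beside 3487 of all 14524 genes (a like share). At an adjusted p of 0.05 or less, DESeq2 called 2 chains higher and 3 lower, beside 811 and 722 of all 14524 genes. For limma-voom these were 3 and 4 chains, beside 1100 and 1139 genes. The fold changes of the 30 chains (affected over non-affected, here and below) were positive for 16 and negative for 14 with a median of 0.03, against a median of −0.01 over all genes. The groups overlapped in every chain, and the share of all genes whose groups overlap was not counted.

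**Figure D1:**
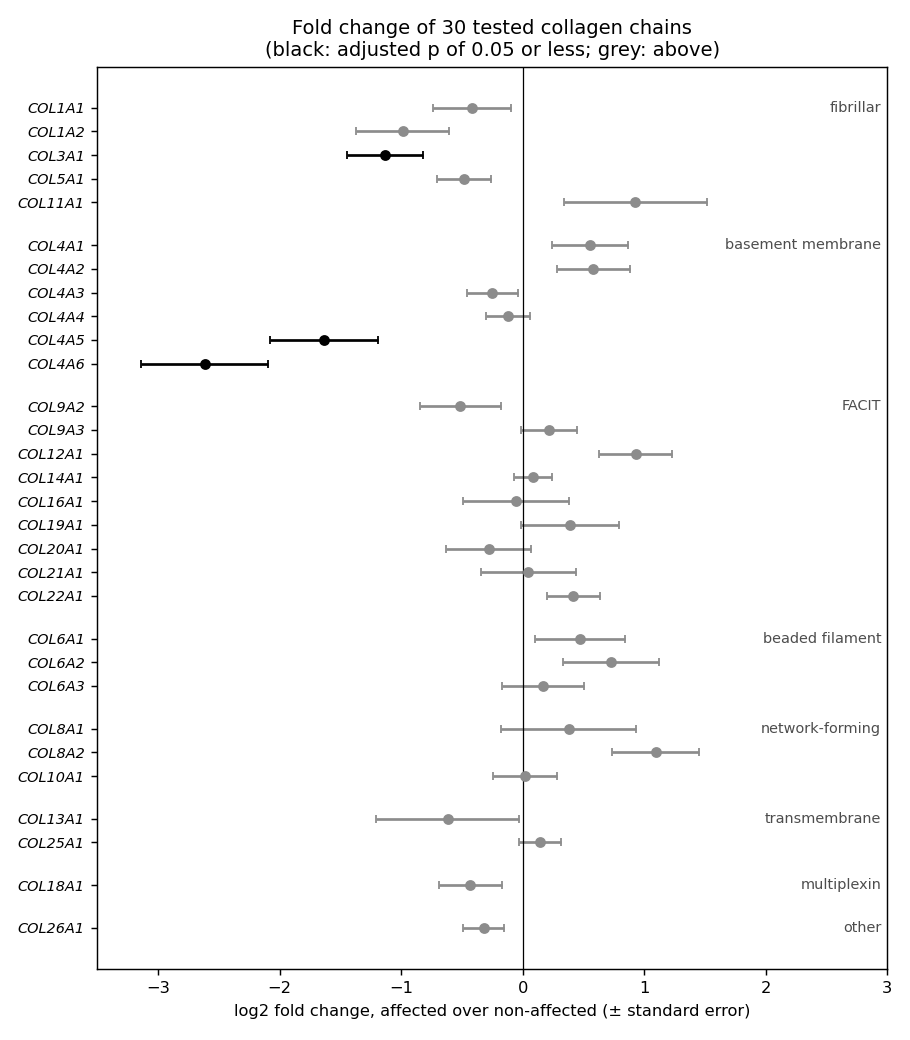
Log2 fold change, affected over non-affected (x axis), of the 30 tested collagen chains grouped by class, with the standard error as bars. The 3 chains in black (COL3A1, COL4A5 and COL4A6) had an adjusted p of 0.05 or less in edgeR, the 27 in grey did not.

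COL3A1, the chain of type III collagen, which forms fibrils with type I in muscle connective tissue, fell in affected cells. Its lowest, median and highest levels were 320, 672 and 1088 CPM in the affected samples, against 256, 1844 and 2247 CPM in the non-affected samples. All 9 affected samples were below the median of the non-affected ones and 8 of 11 non-affected samples above the highest affected one, while NA64B, at 256 CPM, was the lowest of all. The means were 709 ± 253 CPM in affected and 1555 ± 669 CPM in non-affected samples (SD, n = 9 and n = 11, as in all means below). The log2 fold change was −1.13 (SE 0.31, adjusted p = 0.0344), and since these are bulk samples, fewer cells that make the chain and less RNA per cell cannot be told apart. The gene lies on chromosome 7 at 671206–805182 (GRCg7b, positions from RefSeq by symbol, as for all positions here). The call was narrow, because leaving out any 1 of 11 samples (A16, A16B, A4, A72, A76B, A85, NA61, NA62, NA67, NA68 or NA70) gave an adjusted p of 0.0509 to 0.0646, with log2 fold changes of −1.25 to −1.03 over all 20 such fits.

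The other fibrillar chains did not pass in edgeR with all samples. COL1A2, the second chain of type I collagen, had 256, 718 and 2367 CPM (lowest, median, highest) in affected samples and 817, 2453 and 3496 CPM in non-affected samples, with all 9 affected samples below the non-affected median (log2 fold change −0.99, SE 0.39, adjusted p = 0.124). Its log2 fold change was −1.41 (SE 0.40, adjusted p = 0.0440 in edgeR) without A76 and A76B, the pair that differed in W transcripts. That setting was chosen after seeing the data, and COL3A1 was not called in it (adjusted p = 0.0640). Over all genes it called 481 higher and 321 lower of 14791. Among samples with at most 100 HINTW counts COL1A2 had −1.35 (adjusted p = 0.458), and with the HINTW level as a term −0.99 (adjusted p = 0.876). COL1A1, the main chain of type I collagen, had 2657, 8807 and 13848 CPM in affected and 3644, 11031 and 16806 CPM in non-affected samples (log2 fold change −0.41, SE 0.32, adjusted p = 0.434). COL5A1, a chain of type V collagen, which starts fibrils and sets their width, had 1047, 1754 and 2739 CPM in affected and 874, 2747 and 3785 CPM in non-affected samples (−0.48, SE 0.22, adjusted p = 0.187, but −0.66 with an adjusted p of 0.0163 in limma-voom), and all 9 affected samples were below the median of the non-affected ones here too. COL11A1, a chain of type XI collagen, known from cartilage, had 4.20, 43.7 and 86.3 CPM in affected and 2.90, 9.15 and 104 CPM in non-affected samples (0.93, SE 0.59, adjusted p = 0.341). Its highest value was that of NA61B (104 CPM), NA61 had 55.7 CPM and the next non-affected sample, NA62, 20.4 CPM, so NA61 and NA61B were its 2 highest non-affected samples. Of the 5 fibrillar chains, 1 was lower and 0 higher, with a median log2 fold change of −0.48 and COL11A1 as the one positive value.

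Type IV collagen has 6 chain genes, which in mammals lie head to head in pairs, COL4A1 with COL4A2, COL4A3 with COL4A4 and COL4A5 with COL4A6. Of these, COL4A5 and COL4A6 were lower in affected cells, COL4A1 and COL4A2 had positive fold changes that did not pass, and COL4A3 and COL4A4 had values near 0 change.

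COL4A6 had the lowest fold change of all 30 chains. Its lowest, median and highest levels were 0.420, 0.878 and 3.03 CPM in affected samples (8 to 58 counts) and 0.816, 4.90 and 14.6 CPM in non-affected samples (13 to 286 counts). Of the 11 non-affected samples, 8 were above the highest affected sample, A85, and NA64B, NA65 and NA64 (0.816, 1.30 and 1.94 CPM) were within the affected range. The log2 fold change was −2.62 (SE 0.52, adjusted p = 0.00846) and the means were 1.09 ± 0.783 CPM in affected and 6.72 ± 5.29 CPM in non-affected samples. Leaving out any 1 sample kept the call, with adjusted p from 0.004955 to 0.0200. COL4A5, which forms trimers with COL4A6 in the basement membrane of smooth muscle among other tissues, had 1.11, 2.09 and 4.59 CPM in affected samples (19 to 88 counts) and 0.754, 6.06 and 18.7 CPM in non-affected samples (12 to 321 counts). Here 7 of 11 non-affected samples were above the highest affected one, again A85. The log2 fold change was −1.64 (SE 0.45, adjusted p = 0.0341). Without any 1 of A16, A16B, A4, A76B, A79, NA61, NA68 or NA70 it was not called (adjusted p of 0.0502 to 0.0668), at log2 fold changes of −1.81 to −1.40 over all 20 such fits. Both genes lie on chromosome 4, COL4A5 at 13859833–13939361 and COL4A6 at 13939774–14061222, with 412 bases between them.

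The levels of both chains varied widely among the non-affected samples. NA61, NA61B, NA68 and NA70 had the highest COL4A6 levels (13.8, 14.6, 13.9 and 9.48 CPM) and also the highest COL4A5 levels (18.7, 15.3, 12.4 and 8.18 CPM). PAX7, the transcription factor that marks satellite cells, had 170.1, 162, 215 and 186 CPM in these 4 samples, among its 5 highest. It had 130.3 CPM in A85, the highest affected sample for COL4A5, COL4A6 and PAX7 alike, and 20.03 CPM in NA64B, its lowest sample. Other samples went together less closely. NA69 had 166 CPM of PAX7, more than NA61B, with 4.90 CPM of COL4A6. NA66 and A72 had 99.1 and 105 CPM of PAX7, with 5.11 and 0.591 CPM of COL4A6. Over the groups, PAX7 had 34.6, 70.8 and 130.3 CPM (lowest, median, highest) in affected and 20.03, 158 and 215 CPM in non-affected samples (log2 fold change −0.81, SE 0.30, adjusted p = 0.108), and MYF5, an early myogenic factor, had 3.14, 4.62 and 33.6 CPM in affected and 6.58, 45.9 and 159 CPM in non-affected samples (−2.43, SE 0.55, adjusted p = 0.0146). The part of these markers in the COL4A5 and COL4A6 values was not tested.

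**Figure D2:**
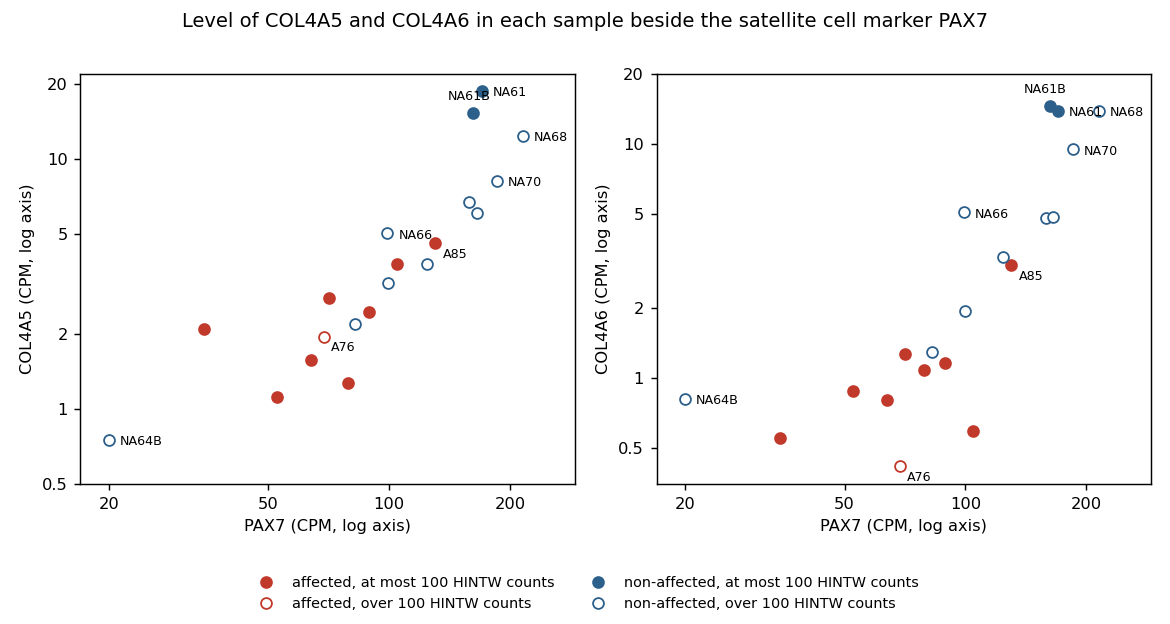
COL4A5 (left) and COL4A6 (right) in CPM (y axis, log scale) beside PAX7 in CPM (x axis, log scale), 1 point per sample, with the colour giving the group and open points marking samples with more than 100 HINTW counts. NA61, NA61B, NA68 and NA70 are high on both axes and NA64B has 20.03 CPM of PAX7 with 0.754 CPM of COL4A5, while A76 has the lowest COL4A6 level (0.420 CPM).

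COL4A1 and COL4A2 make the common type IV trimer of nearly all basement membranes. COL4A1 had 1385, 2131 and 3780 CPM (lowest, median, highest) in affected samples and 612, 1308 and 3141 CPM in non-affected samples (log2 fold change 0.55, SE 0.31, adjusted p = 0.285). COL4A2 had 1408, 2218 and 3560 CPM in affected and 538, 1072 and 2624 CPM in non-affected samples (0.58, SE 0.30, adjusted p = 0.237). For both, all 9 affected samples were above the median of the non-affected ones, and neither passed. Their RefSeq spans on chromosome 1 (138807413–138920608 and 138919708–139061817) overlap by 901 bases, and as the strand setting of the counting is not given in the sources used here, reads from there may not be separable. COL4A3 and COL4A4, chains of the kidney and lung basement membrane, ranged from 0.615 to 1.67 and 1.11 to 1.52 CPM in affected samples and from 0.793 to 2.20 and 0.873 to 2.35 CPM in non-affected samples (log2 fold changes −0.25 and −0.12), and their spans on chromosome 9 overlap by 19210 bases.

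**Figure D3:**
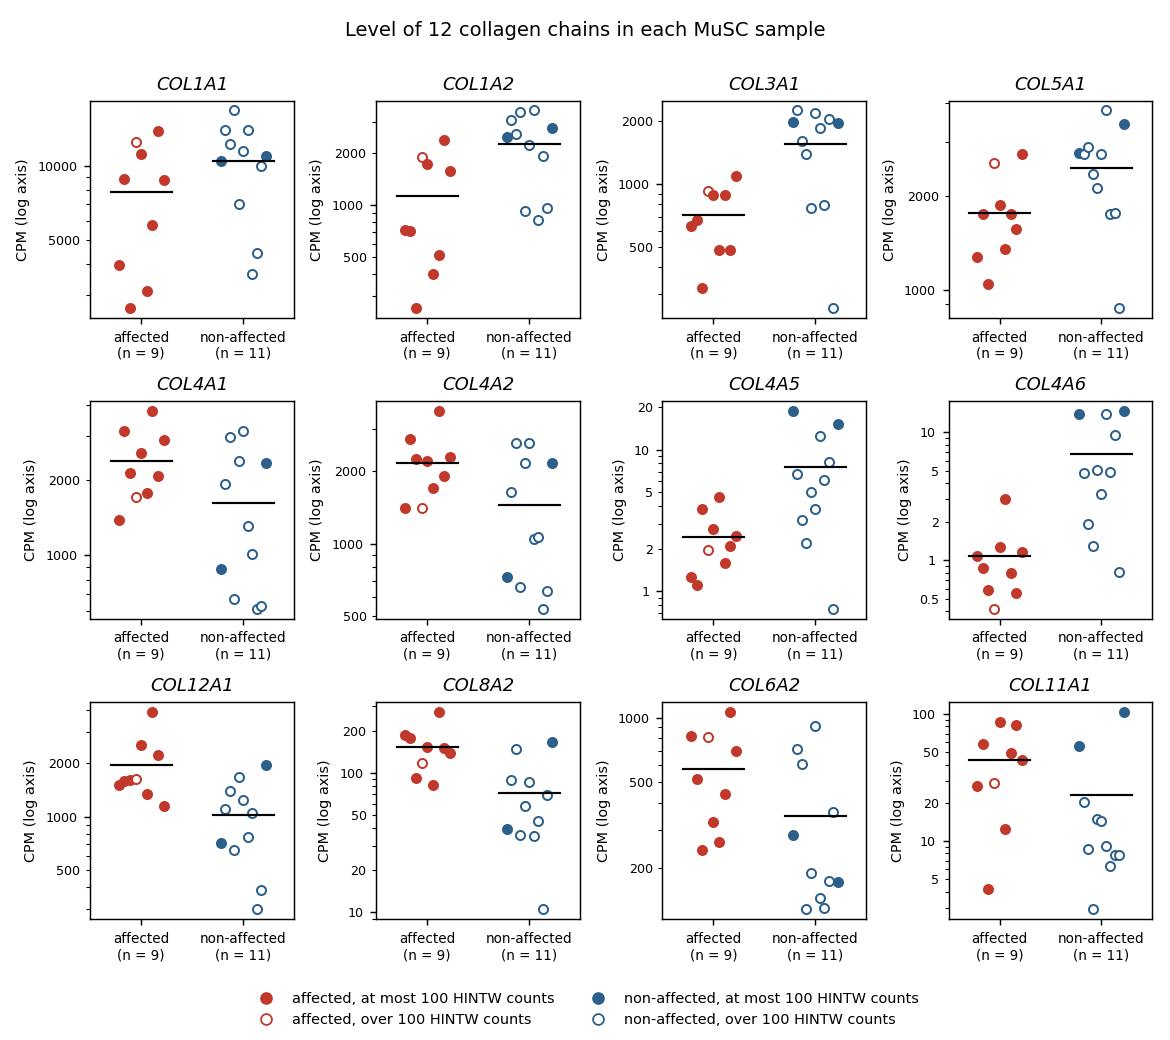
Level in CPM (y axis, log scale) of 12 collagen chains in each sample, affected left and non-affected right, with the mean as a line and open points for samples with more than 100 HINTW counts. COL3A1, COL4A5 and COL4A6 have most non-affected samples above the affected range, with NA64B (256, 0.754 and 0.816 CPM) as the lowest non-affected sample in each, and in COL11A1 NA61 and NA61B stand above the other non-affected samples.

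Of the FACIT chains, 9 were tested, with 6 positive and 3 negative fold changes, a median of 0.08 and none past the threshold. COL12A1, which binds type I fibrils and is made where tissue is under load, came closest. It had 1142, 1607 and 3909 CPM (lowest, median, highest) in affected samples and 299, 1050 and 1969 CPM in non-affected samples, with all 9 affected samples above the non-affected median (log2 fold change 0.93, SE 0.30, adjusted p = 0.0696). DESeq2 gave an adjusted p of 0.0260 for it and limma-voom 0.0278, both past the threshold. The highest value was that of A16B (3909 CPM), while A16, with the same number, had 1582 CPM. COL16A1 ranged from 13.0 to 42.1 CPM in affected and from 4.04 to 73.3 CPM in non-affected samples (−0.06, SE 0.44, adjusted p = 0.952). COL19A1, which is known from embryonic muscle in the mouse, ranged from 15.7 to 96.5 CPM in affected and from 12.4 to 82.7 CPM in non-affected samples (0.39, SE 0.41, adjusted p = 0.573), and its span on chromosome 3 overlaps that of COL9A1 by 698 bases. COL9A2, a partner of COL9A1 in cartilage, had 0.444 to 1.79 CPM in affected and 0.674 to 4.13 CPM in non-affected samples (−0.51, SE 0.33, adjusted p = 0.350). COL9A3, COL14A1, COL20A1, COL21A1 and COL22A1 had log2 fold changes of 0.22, 0.08, −0.28, 0.05 and 0.42, with adjusted p of 0.243 or more. COL22A1, a collagen of the muscle-tendon junction, was the one nearest to the threshold, at 0.998 to 2.54 CPM in affected and 0.674 to 2.51 CPM in non-affected samples (SE 0.22).

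The 3 chains of type VI collagen, which anchors the basement membrane of muscle fibres and is part of the satellite cell niche in the mouse, all had positive fold changes, and none passed. COL6A2 had 243, 519 and 1063 CPM (lowest, median, highest) in affected and 128, 190.4 and 913 CPM in non-affected samples (log2 fold change 0.73, SE 0.40, adjusted p = 0.263), with all 9 affected samples above the non-affected median. COL6A1 had 235, 526 and 923 CPM in affected and 109, 249.9 and 961 CPM in non-affected samples (0.47, SE 0.37, adjusted p = 0.443). COL6A3 had 454, 879 and 2443 CPM in affected and 333, 852 and 1758 CPM in non-affected samples (0.17, SE 0.34, adjusted p = 0.787). Its sign was not stable, as the log2 fold change was −0.09 without A76 (2443 CPM) and −0.14 in limma-voom with all samples.

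Among the network-forming chains, COL8A2, a chain of the type VIII collagen made by vessel walls and by the cornea, had the largest positive fold change of the 30 chains. It had 81.8, 149.8 and 272 CPM (lowest, median, highest) in affected and 10.5, 57.6 and 167 CPM in non-affected samples, with all 9 affected samples above the non-affected median (log2 fold change 1.09, SE 0.36, adjusted p = 0.0713). It passed in DESeq2 (adjusted p = 0.0253) and in limma-voom (adjusted p = 0.0233). Its partner COL8A1 ranged from 143 to 1875 CPM in affected and from 49.4 to 1581 CPM in non-affected samples (0.38, SE 0.56, adjusted p = 0.696). COL10A1, the collagen of hypertrophic cartilage, had 0.630 to 1.80 CPM in affected and 0.393 to 2.26 CPM in non-affected samples (0.02, SE 0.26, adjusted p = 0.976).

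COL13A1, a transmembrane collagen of the neuromuscular junction, ranged from 0.723 to 7.16 CPM in affected and from 0.251 to 9.25 CPM in non-affected samples (log2 fold change −0.62, SE 0.59, adjusted p = 0.532). COL25A1, a transmembrane collagen needed by motor axons in the mouse, stayed between 0.702 and 1.98 CPM in affected and 0.931 and 1.84 CPM in non-affected samples (0.14, SE 0.17, adjusted p = 0.640). COL18A1, the source of endostatin and a proteoglycan of basement membranes, had 878, 1202 and 1533 CPM (lowest, median, highest) in affected and 487, 1424 and 3756 CPM in non-affected samples (−0.43, SE 0.26, adjusted p = 0.313). Its affected samples had an SD of 219 CPM, against 886 CPM in the non-affected samples, where NA65 was highest and NA64B lowest. COL26A1 had 1.31 to 2.51 CPM in affected and 1.57 to 3.47 CPM in non-affected samples (−0.32, SE 0.17, adjusted p = 0.252).

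The make-up of the chain reads is given as a description with no test. The 33 chains together took 22342 ± 6580 CPM in affected and 24876 ± 8067 CPM in non-affected samples, so the groups differed by less than their spread. The symbols found do not include COL5A2, the partner of COL5A1, so these sums and class shares may not hold every collagen chain. Fibrillar chains held 49.1 ± 11.3% of the chain counts in affected and 67.5 ± 9.68% in non-affected samples. Basement membrane chains held 21.6 ± 7.48% in affected and 12.4 ± 5.76% in non-affected samples, and FACIT chains 9.51 ± 3.64% in affected and 4.60 ± 2.52% in non-affected samples. In each of these 3 classes the groups overlapped. The shares mostly follow a few chains and not the class as a whole. COL1A1 alone held a mean of 32.97% in affected and 41.78% in non-affected samples. COL4A1 and COL4A2 averaged 2384 and 2164 CPM in affected and 1627 and 1446 CPM in non-affected samples. The other type IV chains averaged at most 7.48 CPM in either group. COL12A1 averaged 1946 CPM in affected and 1022 CPM in non-affected samples. COL19A1, the next FACIT chain, averaged 43.6 and 33.2 CPM. Since counts grow with transcript length and no transcript lengths were used, the percentages are shares of reads and not of molecules.

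Ratios of chains that share a trimer or fibril were set side by side within each sample. COL1A1 to COL1A2 had a mean log2 ratio of 2.93 ± 0.455 in affected and 2.26 ± 0.547 in non-affected samples, and all 9 affected samples were above the median of the non-affected ones. COL1A1 to COL3A1 averaged 3.34 ± 0.721 in affected and 2.83 ± 1.03 in non-affected samples, again with all 9 affected samples above the non-affected median. COL4A1 to COL4A2 was nearly fixed, at 0.13 ± 0.137 in affected and 0.15 ± 0.130 in non-affected samples, although each of both chains ranged over more than a factor of 2 within a group. COL4A5 to COL4A6 averaged 0.89 ± 0.589 in affected and 0.19 ± 0.290 in non-affected samples, with 6 affected samples above every non-affected one. The difference in this last ratio was 0.70 with 0.5 CPM added to each chain and 0.18 with 5 CPM added, so it depends on how the low affected values are handled. COL6A3 to COL6A1 averaged 0.84 ± 0.549 in affected and 1.33 ± 0.903 in non-affected samples, with all 9 affected samples below the non-affected median. COL6A1 to COL6A2 averaged 0.02 ± 0.178 in affected and 0.27 ± 0.598 in non-affected samples, the wider spread including NA70 at 1.75 and NA64B at −0.58. COL8A1 to COL8A2 averaged 1.88 ± 0.947 in affected and 2.51 ± 1.01 in non-affected samples. The difference in this ratio was −0.63 with all samples. Among samples with at most 100 HINTW counts, where NA61 and NA61B are the only non-affected ones, it was 0.65, so its direction was not stable.

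**Figure D4:**
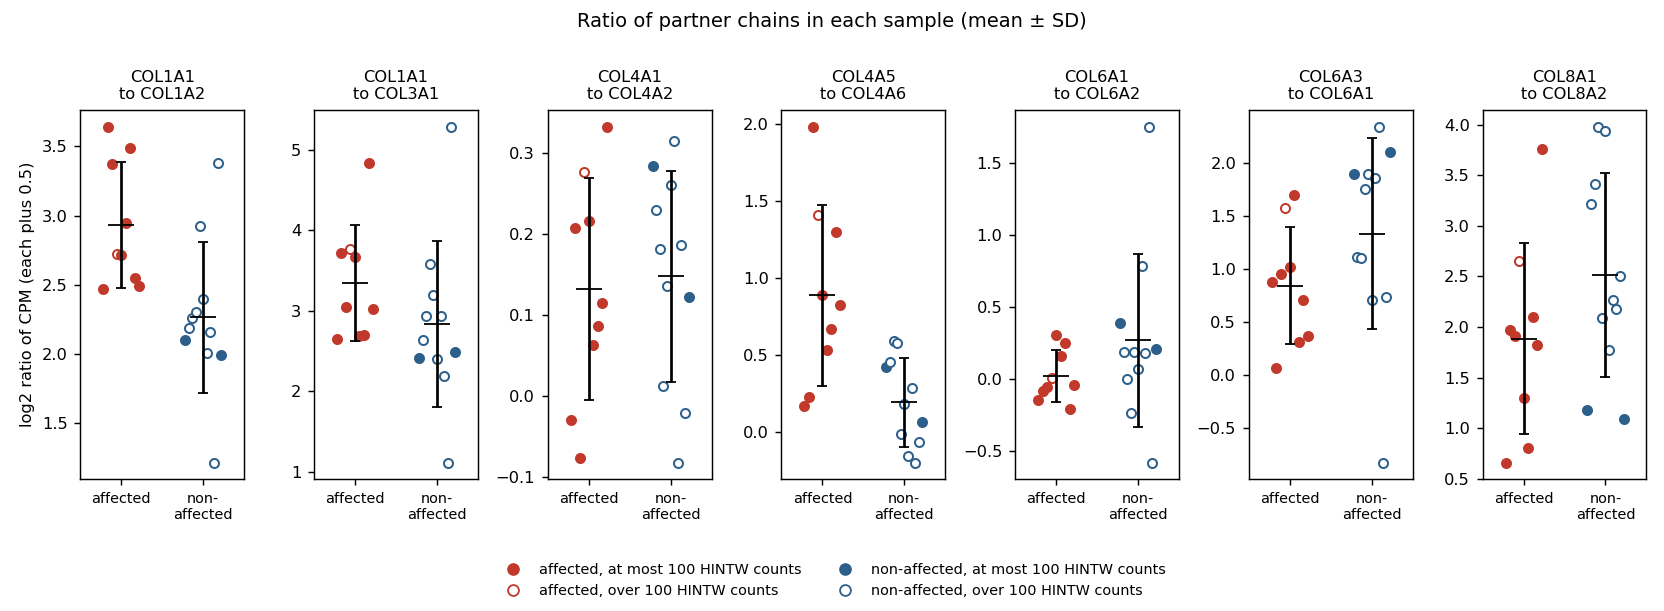
Log2 ratio of 7 pairs of partner chains (y axes, after 0.5 CPM was added to each) in each sample, affected left and non-affected right, with mean and SD as bars. COL1A1 to COL1A2 has all 9 affected samples above the non-affected median, COL4A1 to COL4A2 stays within −0.08 and 0.33 in all samples, and NA70 stands out at 1.75 in COL6A1 to COL6A2.

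Of 39 listed genes for the modification, folding, trimming, cross-linking and binding of collagen, 35 were in the table and tested, of which 3 were higher and 2 lower, with a median log2 fold change of 0.01. These 5 are 14.3% of the list, beside the 6.07% of all genes (3.21% higher, 2.86% lower). ADAMTS2, the protease that removes the amino-terminal propeptide of types I and III, rose, with 94.2, 132 and 160.2 CPM (lowest, median, highest) in affected and 10.6, 53.9 and 106 CPM in non-affected samples (log2 fold change 1.14, SE 0.29, adjusted p = 0.0258). MRC2, an endocytic receptor that takes up collagen fragments, rose, with 426, 614 and 965 CPM in affected and 152, 386 and 612 CPM in non-affected samples (0.76, SE 0.22, adjusted p = 0.0453). DDR1, a receptor tyrosine kinase activated by collagen, rose by less, with 47.7, 75.1 and 96.8 CPM in affected and 37.1, 54.9 and 67.6 CPM in non-affected samples (0.47, SE 0.13, adjusted p = 0.0364). P3H3, a member of the prolyl 3-hydroxylase family that works in a complex on collagen lysines in the mouse, fell, with 2.58, 7.01 and 13.0 CPM in affected and 8.88, 15.9 and 25.8 CPM in non-affected samples (−1.22, SE 0.27, adjusted p = 0.0126). CTHRC1, a secreted protein first described in injured arteries of the rat, fell, with 1.39, 2.42 and 3.395 CPM in affected and 2.56, 3.47 and 6.44 CPM in non-affected samples (−0.70, SE 0.20, adjusted p = 0.0393). The calls of ADAMTS2 and P3H3 held when any 1 sample was left out. MRC2 passed in 6 of 20 such fits, those without A73, A76, NA61B, NA64, NA64B or NA66, with an adjusted p of up to 0.101 in the rest. DDR1 was not called without A16, A16B, A4, A72, A76B, A85, NA61, NA64, NA68 or NA70 (adjusted p of up to 0.0768), and CTHRC1 not without A4, A72, A76B, A79, A85, NA61B, NA62, NA64, NA65 or NA68 (up to 0.0765). Among the samples with at most 100 HINTW counts, where only 8 of 14524 genes passed as higher and 23 as lower, none of the 5 passed. There ADAMTS2 had a log2 fold change of 0.84 (SE 0.30, adjusted p = 0.318) and P3H3 of −0.87 (SE 0.47, adjusted p = 0.507). Those that did not pass include the collagen chaperone SERPINH1 (−0.15, SE 0.16, adjusted p = 0.572), the cross-linking enzyme LOX (0.71, SE 0.40, adjusted p = 0.287) and the prolyl 4-hydroxylase subunit P4HA1 (−0.52, SE 0.23, adjusted p = 0.162).

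Since W transcripts divide the samples almost as the groups do, the chains were also compared within each kind of library. Among samples with at most 100 HINTW counts (8 affected against NA61 and NA61B), COL4A6 and COL4A5 passed with log2 fold changes of −3.60 (SE 0.45, adjusted p = 0.0201) and −2.79 (SE 0.42, adjusted p = 0.0286), where 23 of 14524 genes were lower and 8 higher. The 8 affected samples had 0.553 to 3.03 CPM of COL4A6, against 13.8 and 14.6 CPM in NA61 and NA61B, which share a number. Over all 20 samples, NA61 and NA61B had the highest COL4A5 levels (18.7 and 15.3 CPM). With NA68 (13.9 CPM) they also had the highest COL4A6 levels. The size of these 2 fold changes thus rests on 1 high pair, which the test counts as 2 independent samples. COL3A1 had a log2 fold change of −1.54 (SE 0.35, adjusted p = 0.127) there, with 320 to 1088 CPM in the 8 affected samples against 1981 and 1960 CPM in NA61 and NA61B. In the other libraries, A76 alone against 9 non-affected samples, the spread of a lone affected sample is assumed to be that of the non-affected ones, and 0 chains passed (2 at an unadjusted p under 0.05, beside 401 of 14524 genes, of which 2 were called lower). A76 had 0.420 CPM of COL4A6, against 0.816 to 13.9 CPM in those 9, and the log2 fold changes were −3.58 for COL4A6, −1.47 for COL4A5 and −0.67 for COL3A1, with adjusted p of 0.9996 each. With the HINTW level as a term over all 20 samples, 0 of 30 chains and 0 of 14524 genes passed, with 5 chains and 840 genes at an unadjusted p under 0.05. The sign was that of the fit of all 20 samples without the term for 24 of 30 chains. It was so for 22 of 30 among samples with at most 100 HINTW counts, and for 18 of 30 among those with more. With the term, COL4A6 had a log2 fold change of −3.67 (SE 0.58, adjusted p = 0.0535), COL4A5 −2.47 (SE 0.47, adjusted p = 0.140) and COL3A1 −1.25 (SE 0.40, adjusted p = 0.536). COL12A1 and COL8A2 had smaller values with the term, at 0.51 and 0.67, and COL11A1 turned to −0.12 with the term and to −0.82 among the samples with at most 100 counts.

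**Figure D5:**
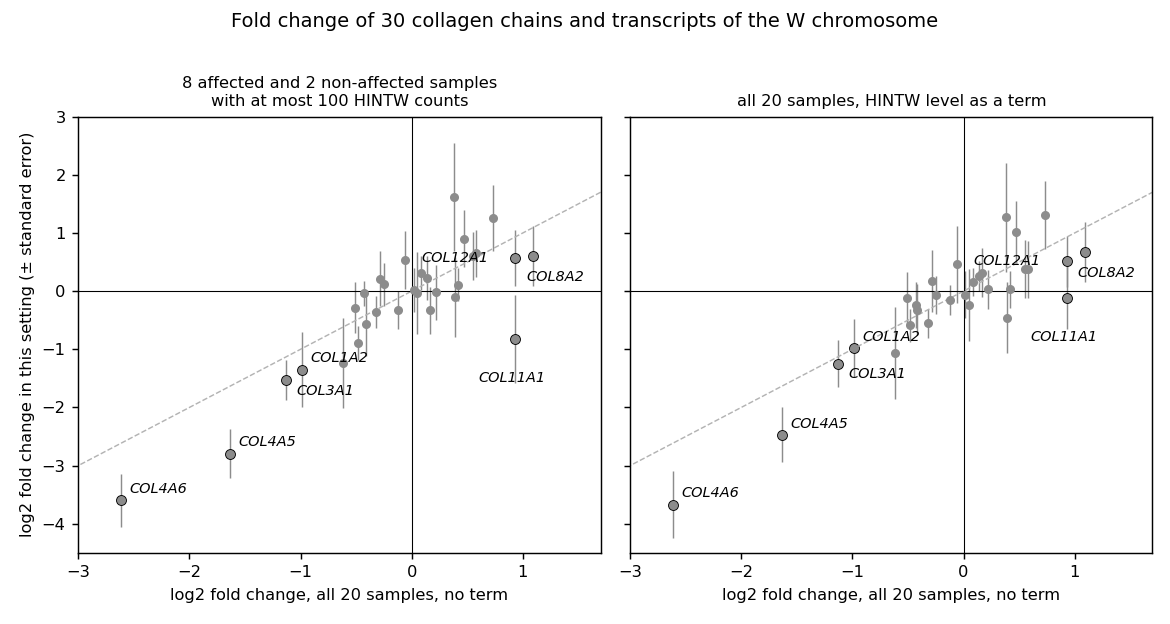
Log2 fold change of the 30 tested chains in all 20 samples (x axis) against that in 8 affected and 2 non-affected samples with at most 100 HINTW counts (left, y axis) and with the HINTW level as a term (right, y axis), with the standard error as bars and equality as a dashed line. COL4A6 and COL4A5 lie below the line in both panels, at −3.60 and −2.79 on the left and −3.67 and −2.47 on the right, and COL11A1 is below 0 in both. The 2 non-affected samples on the left are NA61 and NA61B, which share a number and were among the highest samples for COL4A5 and COL4A6.

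The macrophage markers differed in part between the groups and are described here without p-values. The summed level of the 8 listed markers had a median of 61.4 CPM in affected samples (32.9 to 118) and 28.7 CPM in non-affected samples (13.0 to 42.8), with A79 (118 CPM) and A76B (83.2 CPM) highest, and MARCO and C1QA at or below 2.31 CPM in every sample. The sum was carried mainly by PTPRC, with a median of 19.1 CPM in affected and 6.46 CPM in non-affected samples, and by CD14, with 26.4 CPM in affected and 13.0 CPM in non-affected samples, while C1QB had 4.26 CPM in affected and 4.21 CPM in non-affected samples and CD74 0.793 CPM in both. TREM2 had a median of 5.32 CPM in affected and 0.691 CPM in non-affected samples. CSF1R had 1.46 CPM in affected and 0.818 CPM in non-affected samples. In TREM2 and CSF1R alike, 7 affected samples were above every non-affected one. The part of the macrophage markers in the differences was not tested. Without A79 and A76B, 1 chain, COL4A6, passed (log2 fold change −2.57, SE 0.60, adjusted p = 0.0375), with COL3A1 at an adjusted p of 0.0878 and COL4A5 at 0.0897. Over all genes that fit called 180 higher and 166 lower of 14787, against 466 and 415 of 14524 with all samples. The summed level of smooth muscle and pericyte markers had a median of 2479 CPM in affected and 1788 CPM in non-affected samples. That of adipocyte markers had 139 CPM in affected and 78.5 CPM in non-affected samples. For endothelium it was 12.4 CPM in affected and 10.3 CPM in non-affected samples. For cartilage and tendon it was 131 CPM in affected and 143 CPM in non-affected samples. The groups overlapped in each list. Each sum was carried mainly by 1 gene, so it describes that gene more than the list. These genes were ACTA2 for smooth muscle and pericytes, FABP4 for adipocytes, PECAM1 for endothelium and MKX for cartilage and tendon. In NA65 the endothelial sum was instead carried by TEK (92.9 CPM). The share of these cell types in the cultures was not tested.

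When samples that share a number were summed, COL3A1 and COL4A6 passed in edgeR (adjusted p of 0.0272 and 0.0203) and COL4A5 did not (0.0641). Over all genes that fit called 432 higher and 319 lower of 14703. It joined A76 and A76B as 1 bird, although these differed in HINTW (876 against 0 counts). The same 2 chains passed without the samples of suffix B, beside 299 higher and 284 lower of 14525 genes. Without NA64B and NA70, whose levels were lowest in several chains and which were chosen for this after seeing the data, the 3 chains passed with log2 fold changes of −1.21 for COL3A1, −1.76 for COL4A5 and −2.69 for COL4A6. Over all genes that fit called 360 higher and 334 lower of 14290.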

How the data were processed

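The authors trimmed the reads with Trim Galore 0.6.7 (with cutadapt 3.4), aligned them to GRCg7b with STAR 2.7.9a, quantified genes with Salmon 1.10.1 and summed them with tximport. The deposited values are these estimated counts, not normalized and not filtered. The strand setting and the annotation release are not given in the sources used here, and the outliers that the study excluded from its non-affected group were kept, since the labels do not name them. The study's group sizes after that exclusion do not match those of the labels, which were used here.

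Estimated counts were rounded, filtered with filterByExpr (14524 of 30108 genes kept), scaled with TMM and compared in edgeR 4.0.16 (R 4.3.3) with the robust quasi-likelihood test in a design with the group alone, all 20 samples and Benjamini-Hochberg adjustment over all genes tested. The threshold for a call was an adjusted p of 0.05, and counts at a log2 change of at least 1 in size are given beside it. The SE is approximate, from the log2 fold change and its F statistic. CPM were computed with TMM factors. All 33 chains matched RefSeq (GRCg7b) by symbol, and 0 lie on Z or W.

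The chains, the lists and the tests were chosen with earlier results of these data known. Named were each chain or processing gene with an adjusted p of 0.05 or less (at most 8 processing genes, by p), the 3 chains of each class with the highest mean CPM, the partners of each ratio, and the chains that failed the filter. COL11A1, the low chains, SERPINH1, LOX and P4HA1 were named after their values were seen. Alternatives were DESeq2 1.42.0, limma-voom 3.58.1 with sample weights, other size factors, filters and pseudocounts, subsets of samples and each sample left out. The edgeR script was tested on simulated data, from which no value is given here. Precision is limited by counting at low levels, and counts of 8 to 58 stand behind the lowest chain called.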

Additional observations from a re-analysis of the deposited data

Results flagged for a closer look

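Among the 9 affected samples, 37 genes and summed measures were examined for a value far from the rest by Dixon's test, which flags about 1 in 20 by chance, and 2 stood apart. COL4A6 was 3.03 CPM in A85, with the next affected sample at 1.27 CPM. Without A85 the log2 fold change of COL4A6 was −2.98 (SE 0.52, adjusted p = 0.00523 in edgeR). COL13A1 was 7.16 CPM in A79, with the next affected sample at 3.55 CPM, and without A79 its log2 fold change was −1.09 (SE 0.58, adjusted p = 0.281). The 11 non-affected samples were not examined in this way.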

How the results depend on the processing

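Another 34 settings were tried in all. The count of 3 lower chains was 2 without A76 and A76B (COL1A2 and COL4A6), 1 without A79 and A76B, 0 with HINTW as a term, and 4 with limma-voom (COL5A1 added). It ranged from 1 to 3 when a single sample was left out, with 1 (COL4A6) without A16, A16B, A4, A76B, NA61, NA68 or NA70. The count of 0 higher chains was 2 with DESeq2 (COL12A1 and COL8A2) and 3 with limma-voom (those and COL22A1), and ranged from 0 to 2 when a single sample was left out (2 without NA61B, 1 without A73, NA64 or NA66). Over all genes, edgeR called 466 higher and 415 lower, DESeq2 811 and 722, and limma-voom 1100 and 1139. With a single sample left out, edgeR called from 265 higher and 242 lower genes (without A4) to 862 and 925 (without A73). Without the filter it called 446 higher and 354 lower of 26196 genes. The count of 3 higher processing genes was 1 without the filter, without A76 and A76B or at a log2 change of at least 1 in size, 0 without the suffix B samples, without A79 and A76B, with HINTW as a term and within either kind of library, and 1 to 4 when a single sample was left out. The count of 2 lower processing genes was 6 with limma-voom, 1 without the filter, without the suffix B samples, without A79 and A76B or at a log2 change of at least 1 in size, 0 with HINTW as a term and within either kind of library, and 1 to 3 when a single sample was left out.

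Of the 27 tested genes that the rule names, 9 turned in sign in some setting, none of them a called chain, and so did 10 of the 11 genes named after their values were seen. Among samples with over 100 HINTW counts the log2 fold changes were 0.26 for COL1A1, 0.13 for COL5A1, −0.0435 for COL4A2, 0.10 for COL9A2, 0.17 for COL16A1, −0.92 for COL19A1, −0.78 for COL10A1 and −0.13 for DDR1. Among samples with at most 100 they were 0.53 for COL16A1, −0.10 for COL19A1 and −0.33 for COL6A3. With HINTW as a term they were 0.46 for COL16A1, −0.45 for COL19A1 and −0.0617 for COL10A1. COL16A1 was 0.0240 without A79 and A76B. COL6A3 was −0.14 in limma-voom, −0.23 without A76 and A76B and −0.0179 without NA64B and NA70, the last 2 settings having been chosen after seeing the data, as was edgeR without robust estimation. With a single sample left out, COL16A1 ranged from −0.20 to 0.27, COL6A3 from −0.0887 to 0.29 and COL10A1 from −0.11 to 0.17. The causes were not tested. No paired analysis was possible because affected and non-affected samples share no number.

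Depth limits COL4A5, COL4A6 and the chains near 1 CPM, whose fold changes rest on few counts per affected sample. Each side of the W division is small, with 2 non-affected samples of 1 number on the one and 1 affected sample on the other, so the fits within it have little power.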
